A study of Homo sapiens with 9 samples.

Results

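The insulin-like growth factor (IGF) system was followed in HepG2 cells, an established human hepatoma line, through the messenger RNA of 10 genes: the hormone IGF1, the receptors IGF1R and IGF2R, the carrier subunit IGFALS and the binding proteins IGFBP1 to IGFBP6. The members were all probe sets, that is sets of short array probes for one transcript region, whose annotation gave exactly one gene symbol and that symbol was one of the 10. These are 10 of the 11963 genes with such a single-symbol probe set, and 21 of the 22215 probe sets tested: 5 for IGFBP5, 4 for IGF1, 3 for IGF1R, 2 each for IGF2R and IGFBP3, and 1 for each of the other 5 genes. IGF2 was not analysed here, because the 3 probe sets that name it name a read-through gene as well.

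Cells were moved to medium with serum depleted of thyroid hormone and received for 24 h either GC-1 at 10 nM, triiodothyronine (T3, the active thyroid hormone) at 10 nM, or vehicle, with 3 Affymetrix arrays per group and 9 in all. All groups share the 1 tumour-derived line and the hormone-depleted serum. GC-1, also known as sobetirome, is a synthetic agonist that prefers the beta form of the thyroid hormone receptor. It carries methyl groups in place of the inner-ring iodines of T3, an isopropyl group in place of its outer-ring iodine, a methylene bridge between the rings and an oxyacetic acid in place of the amino acid side chain.

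In the body, growth hormone drives the liver to secrete IGF1, and nearly all circulating IGF is held by binding proteins, most of it in a complex of IGFBP3 or IGFBP5 with the acid-labile subunit made from IGFALS. IGF1R is the tyrosine kinase that carries the growth signal, whereas IGF2R takes up IGF2 and mannose-6-phosphate-tagged enzymes for delivery to lysosomes. Hepatocytes are the main source of circulating IGFBP1, whose gene is repressed by insulin through FOXO1, while in rat liver IGFBP3 comes largely from cells other than hepatocytes.

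The data were RMA signals on a log2 scale, 1 value per probe set and array, with array medians of 7.02 to 7.06. T3 replicates 1 and 2 stood apart in the spread of their values, with interquartile ranges of 2.99 and 2.97 log2 units against 2.83 to 2.88 on the other 7 arrays. Some T3 results, though not all, are therefore also given without them. That setting leaves 1 T3 array, which is assumed to vary like the GC-1 and vehicle arrays, so its p-values hold no check of the spread under T3. The 8 hepatocyte and hepatoma markers, among them ALB and AFP, lay between 11.6 and 14.5 on all arrays. They summed to 109.0 to 109.4 on GC-1 arrays and 109.3 to 109.5 on T3 arrays, against 108.0 to 108.2 on vehicle arrays. Of the 8, 1 passed with GC-1 and 2 with T3, where 2.8% and 5.5% of all probe sets passed. FGB moved most, with means of 12.26 with GC-1 and 12.31 with T3, against 11.61 with vehicle. AFP alone had lower means with the ligands (14.35 with GC-1 and 14.33 with T3, against 14.38). Whether these shifts bear on the members' differences was not tested. Of the 9 markers of other cells 8 were measured. Their sums were 51.5 to 51.9 on GC-1 arrays and 50.9 to 51.7 on T3 arrays, against 50.7 to 51.7 on vehicle arrays. The leukocyte gene PTPRC lay at most at 5.09, and the endothelial genes CDH5 and PECAM1 at most at 5.25 and 6.22. The fibroblast genes LUM, COL1A2 and COL1A1 lay at most at 3.56, 6.37 and 9.28, and the epithelial gene KRT5 at most at 6.8. ACTA2, an actin of contractile cells, lay between 10.1 and 10.3, and no marker of other cells passed the test in either comparison with vehicle. Nothing in the labels says that replicates were separate cultures, so the p-values measure the spread between these arrays, which may be technical.

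Of the 10 genes, 9 matched a promoter window in RefSeq (GRCh38.p14, 250 bases before to 50 after a transcript start); IGFBP1 did not match. The windows below belong to the 3 genes with a probe set that changed, and are shown because their messenger level is what the comparisons with vehicle turn on. They read 5′ to 3′ along the gene, in lower case. Capitals mark matches, on either strand, to the TATA motifs TATAAA and TATATA and the GC box GGGCGG (read as CCGCCC on the other strand). The other motifs searched were the thyroid hormone receptor half-site AGGTCA, the FOXO motif GTAAACA and the E-box CACGTG, and none of these was found in the 3 windows. For IGFBP2, which has 3 windows, the one with the most CG dinucleotides (28, against 8 and 6) is shown.
IGFBP3, chr7:45921223-45921522, minus strand: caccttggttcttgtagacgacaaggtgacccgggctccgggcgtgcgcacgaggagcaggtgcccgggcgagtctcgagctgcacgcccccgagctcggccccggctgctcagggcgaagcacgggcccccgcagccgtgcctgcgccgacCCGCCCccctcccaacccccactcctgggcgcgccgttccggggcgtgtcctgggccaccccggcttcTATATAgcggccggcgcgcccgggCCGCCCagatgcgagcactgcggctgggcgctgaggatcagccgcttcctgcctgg
IGFBP4, chr17:40443200-40443499, plus strand: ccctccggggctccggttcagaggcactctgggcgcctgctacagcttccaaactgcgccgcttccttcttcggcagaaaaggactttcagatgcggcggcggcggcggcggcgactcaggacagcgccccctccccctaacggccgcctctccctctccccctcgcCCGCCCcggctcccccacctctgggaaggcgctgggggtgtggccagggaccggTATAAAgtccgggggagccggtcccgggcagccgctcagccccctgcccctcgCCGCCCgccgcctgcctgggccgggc
IGFBP2, chr2:216633170-216633469, plus strand: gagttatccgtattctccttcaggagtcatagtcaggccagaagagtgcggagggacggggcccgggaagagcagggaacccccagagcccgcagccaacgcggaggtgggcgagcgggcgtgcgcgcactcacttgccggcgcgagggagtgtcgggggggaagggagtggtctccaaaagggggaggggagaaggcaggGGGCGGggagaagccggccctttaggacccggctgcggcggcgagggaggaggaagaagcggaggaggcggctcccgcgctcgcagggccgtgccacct

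The IGFBP3 window held TATATA at -30 to -25 from the start site, and the IGFBP4 window TATAAA at -29 to -24, while the IGFBP2 window shown held neither. Among all 35116 windows 3.99% held TATATA and 11.5% TATAAA. All 3 held the GC box, as did 45% of all windows. IGFBP2's window at chr2:216632578-216632877 held AGGTCA on the minus strand (-191 to -186), and so did a window of IGF1 at chr12:102478501-102478800 (17 to 22), a motif found in 13.8% of windows. Among the other members, GTAAACA was found for IGF1 (-247 to -241) and IGFBP6 (-186 to -180), against 3.42% of all windows. The window of IGF2R held 3 copies of CACGTG, at -132 to -127, -74 to -69 and -28 to -23, against at least 1 copy in 7.26% of windows. In the RefSeq gene order of GRCh38.p14, IGFBP1 and IGFBP3 are neighbouring coding genes on chromosome 7, and IGFBP2 and IGFBP5 on chromosome 2. These matches describe letters only.

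The first comparison asks which members T3 or GC-1 changed against vehicle. Both ligands left most of the system near its vehicle level. IGFBP3 rose with T3 in 1 of its 2 probe sets. IGFBP4 rose and IGFBP2 fell with GC-1, and both of these calls were lost when any GC-1 array was left out. No probe set of IGF1, the receptors, IGFALS, IGFBP1, IGFBP5 or IGFBP6 passed. The test was limma's moderated test over all 9 arrays, with Benjamini-Hochberg adjustment over the 22215 probe sets and an adjusted p under 0.05 as the threshold. With GC-1, 2 of 21 member probe sets passed (9.52%), against 2.8% of all probe sets. One was higher and one lower, where 1.81% of all probe sets were higher and 0.986% lower. With T3, 1 of 21 passed (4.76%), against 5.5% of all probe sets, so the T3 share was near the background. It was higher, as were 4% of all probe sets, and 0 members were lower, against 1.5% of all. The direction of the calls over all probe sets depended on the setting. With T3 it was 888 higher and 334 lower as reported, but 932 and 1152 with each array's interquartile range as a covariate, where 1 of the 3 members called was lower, and 850 and 980 without T3 replicates 1 and 2. With GC-1 it was 403 higher and 219 lower as reported, but 653 and 694 with the trend and robust options of eBayes, 706 and 729 with array weights, and 522 and 539 with only the groups compared. The median difference of the 21 was -0.01 log2 units with GC-1 and 0.01 with T3, against -0.00433 and -0.01 over all probe sets. Standard errors of the members' differences ran from 0.045 to 0.092 log2 units, and a difference had a median 95% interval of ±0.16. The 2 ligand comparisons share the 3 vehicle arrays.

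**Figure D1:**
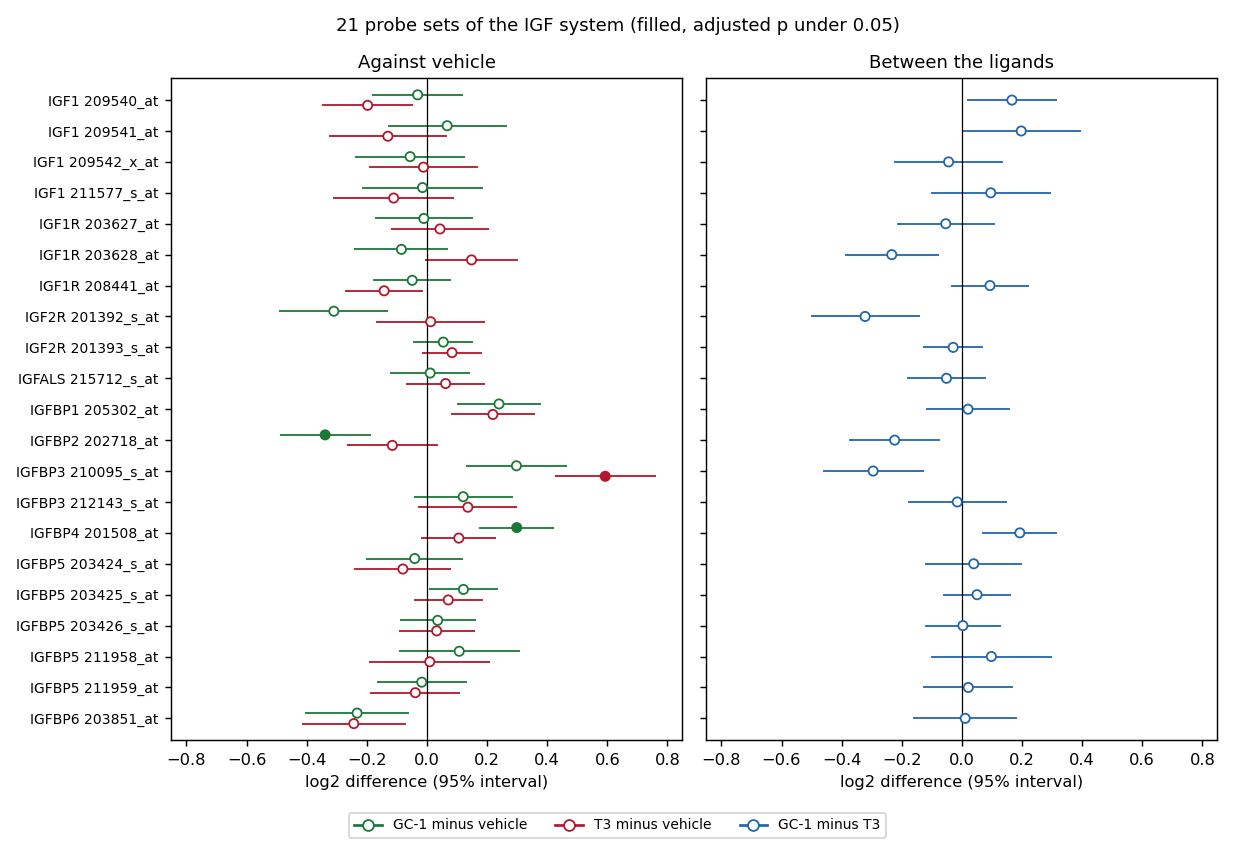
Log2 differences with 95% intervals for the 21 member probe sets, GC-1 and T3 against vehicle on the left and GC-1 minus T3 on the right; filled points have an adjusted p under 0.05. Filled points stand at IGFBP2 (-0.34) and IGFBP4 (0.30) for GC-1 and at IGFBP3 (0.59) for T3, and no point is filled between the ligands.

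IGFBP3, the main IGF carrier of serum, which also restrains cell growth on its own, showed the largest difference of any member. Its probe set 210095_s_at read 7.08, 7.06 and 7.05 on GC-1 arrays and 7.42, 7.42 and 7.23 on T3 arrays, against 6.61, 6.81 and 6.88 on vehicle arrays. All 3 T3 arrays lay above all GC-1 arrays, and these above all vehicle arrays. The T3 mean was 7.36 ± 0.11 and the vehicle mean 6.77 ± 0.14 (SD, n = 3 each), a 1.51-fold rise (log2 0.59 ± 0.08 SE, adjusted p = 0.001). With GC-1 the mean was 7.06 ± 0.01, 1.23-fold the vehicle mean, and the difference of 0.30 ± 0.08 did not pass (adjusted p = 0.0708), though it did in 6 of the 16 alternative settings that keep at least 2 arrays a group (0.22 to 0.35, adjusted p of 0.0236 to 0.221). The T3 call held in all 16 of these, at log2 differences of 0.47 to 0.66 and adjusted p of 4.35e-05 to 0.02. Without T3 replicates 1 and 2, which had the 2 highest values, the difference of the remaining T3 array from vehicle was 0.46 (adjusted p = 0.026, with the spread taken from the GC-1 and vehicle arrays).

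The second IGFBP3 probe set, 212143_s_at, did not show this rise. It read 6.61, 6.58 and 6.56 on GC-1 arrays and 6.51, 6.77 and 6.51 on T3 arrays, against 6.41, 6.41 and 6.57 on vehicle arrays. Both ligand groups overlapped the vehicle range. The differences were 0.12 with GC-1 (adjusted p = 0.482) and 0.14 with T3 (adjusted p = 0.334), so the 2 probe sets of the gene point the same way with unequal size.

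IGFBP4, a binding protein that blocks IGF action until the protease PAPPA cleaves it, rose with GC-1. It read 8.29, 8.32 and 8.28 on GC-1 arrays and 8.16, 8.16 and 8.00 on T3 arrays, against 7.95, 8.05 and 8.00 on vehicle arrays. The GC-1 arrays lay above all the others, and the T3 arrays overlapped vehicle. The GC-1 mean was 8.30 ± 0.02 and the vehicle mean 8.00 ± 0.05 (SD, n = 3 each), a 1.23-fold rise (log2 0.30 ± 0.06 SE, adjusted p = 0.0177). With T3 the difference was 0.11 ± 0.06 (adjusted p = 0.316), and -0.000667 without T3 replicates 1 and 2. The GC-1 call was lost when vehicle replicate 1 or 3 or any GC-1 array was left out, with differences of 0.28 to 0.31 and adjusted p of 0.0626 to 0.0901.

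IGFBP2, a binding protein abundant in fetal and fasting liver, fell with GC-1. It read 7.48, 7.44 and 7.44 on GC-1 arrays and 7.69, 7.71 and 7.62 on T3 arrays, against 7.66, 7.94 and 7.77 on vehicle arrays. Every GC-1 array was below every other array, while the T3 and vehicle arrays overlapped. The GC-1 mean was 7.45 ± 0.02 and the vehicle mean 7.79 ± 0.14 (SD, n = 3 each), a 1.26-fold decrease (log2 -0.34 ± 0.07 SE, adjusted p = 0.0258). With T3 the difference was -0.12 ± 0.07 (adjusted p = 0.377). The GC-1 call was lost without vehicle replicate 2 or 3 or any GC-1 array (differences of -0.26 to -0.35, adjusted p of 0.0768 to 0.106) and with the interquartile range as a covariate (adjusted p = 0.0578).

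**Figure D2:**
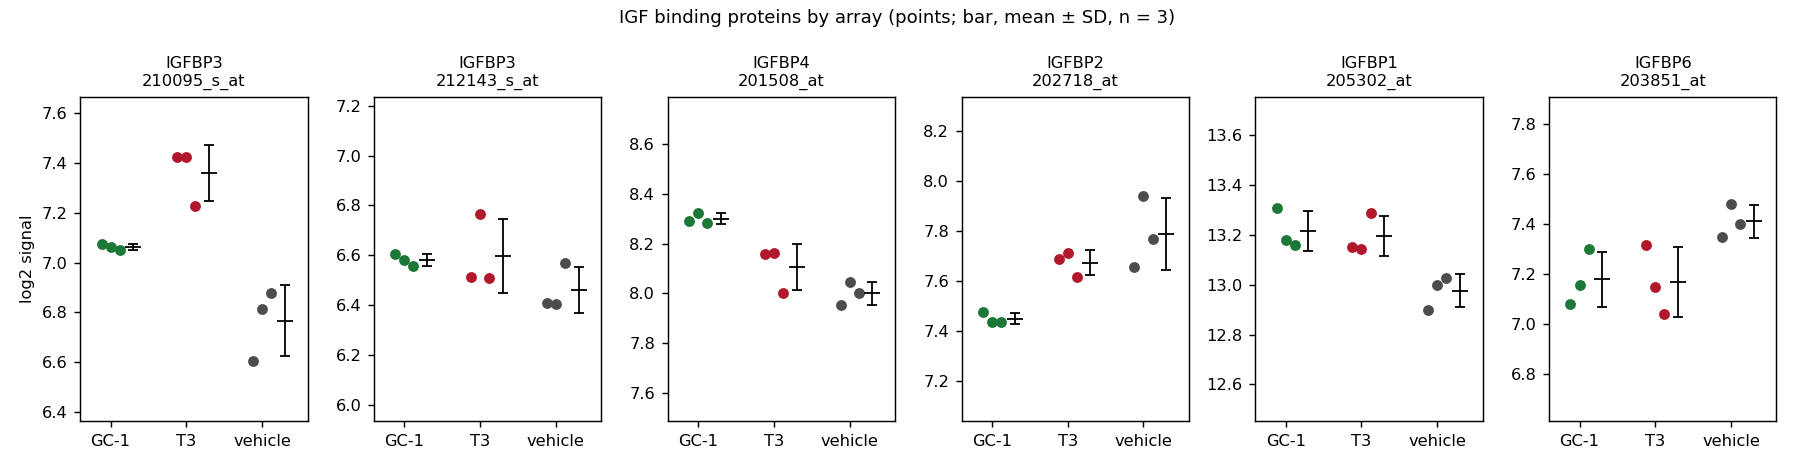
Log2 signal on each array (points, 3 per group) with the mean and SD beside them, for 6 probe sets of binding proteins in GC-1, T3 and vehicle groups; every panel spans the same 1.3 log2 units. IGFBP3 210095_s_at is highest on the T3 arrays, IGFBP4 is highest and IGFBP2 lowest on the GC-1 arrays, and IGFBP1 lies above all vehicle arrays with both ligands.

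IGFBP1, the insulin-repressed binding protein of hepatocytes, lay close to the upper end of the arrays' range, whose highest value was 14.5. It read 13.31, 13.18 and 13.16 on GC-1 arrays and 13.15, 13.15 and 13.29 on T3 arrays, against 12.90, 13.00 and 13.03 on vehicle arrays. All 6 ligand arrays lay above all 3 vehicle arrays. The differences were 0.24 ± 0.06 with GC-1 (1.18-fold, adjusted p = 0.0776) and 0.22 ± 0.06 with T3 (1.16-fold, adjusted p = 0.0716), and neither passed. Of the 16 alternatives, 5 brought the GC-1 difference and 3 the T3 difference past the threshold, over ranges of 0.19 to 0.27 and 0.17 to 0.33 log2 units. The T3 difference was 0.31 without T3 replicates 1 and 2.

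IGFBP6, a binding protein that prefers IGF2, had the opposite arrangement. It read 7.08, 7.15 and 7.30 on GC-1 arrays and 7.31, 7.15 and 7.04 on T3 arrays, against 7.35, 7.48 and 7.40 on vehicle arrays. All 6 ligand arrays lay below the vehicle arrays, with differences of -0.23 ± 0.08 with GC-1 (adjusted p = 0.17) and -0.24 ± 0.08 with T3 (adjusted p = 0.106). With the interquartile range as a covariate the T3 difference was -0.41 and passed (adjusted p = 0.0228). The 1 T3 array left without T3 replicates 1 and 2 lay -0.37 from vehicle (adjusted p = 0.0441, with the spread taken from the GC-1 and vehicle arrays).

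IGFBP5, a binding protein that also attaches to extracellular matrix, differed little in any of its 5 probe sets. Their differences ran from -0.04 to 0.12 with GC-1 and from -0.08 to 0.07 with T3, and none passed. Only 203425_s_at had all GC-1 arrays (5.58, 5.59 and 5.61) above all vehicle arrays (5.46, 5.41 and 5.54), at a difference of 0.12 (adjusted p = 0.28). The other 4 were 203424_s_at (-0.04 with GC-1 and -0.08 with T3), 203426_s_at (0.04 and 0.03), 211958_at (0.11 and 0.01) and 211959_at (-0.02 and -0.04). IGFALS, the subunit that holds IGF and binding protein in the long-lived serum complex, read 6.19, 6.21 and 6.06 on GC-1 arrays and 6.29, 6.20 and 6.13 on T3 arrays, against 6.11, 6.19 and 6.13 on vehicle arrays. The 3 groups overlapped, with differences of 0.01 (GC-1, adjusted p = 0.962) and 0.06 (T3, adjusted p = 0.61).

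IGF1, the growth factor that the liver secretes under growth hormone, was measured by 4 probe sets and none passed. Their differences ran from -0.06 to 0.07 with GC-1 and from -0.20 to -0.01 with T3. Probe set 209540_at read 5.27, 5.25 and 5.33 on GC-1 arrays and 5.23, 4.96 and 5.15 on T3 arrays, against 5.30, 5.27 and 5.37 on vehicle arrays. All T3 arrays lay below all vehicle arrays there, by -0.20 ± 0.07 (adjusted p = 0.129). The remaining 3 were 209541_at (0.07 with GC-1 and -0.13 with T3), 209542_x_at (-0.06 and -0.01) and 211577_s_at (-0.01 and -0.11). Probe set 209540_at was dim, with a mean below the lower quartile of all probe sets (5.84). Of the 21 members 14 lay above that limit, and those below it were 2 probe sets of IGF1, 1 of IGF1R and 4 of IGFBP5.

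No receptor probe set passed, and the 2 IGF2R probe sets differed in direction with GC-1. For IGF2R, the uptake receptor, probe set 201392_s_at read 8.20, 8.16 and 8.21 on GC-1 arrays and 8.68, 8.55 and 8.31 on T3 arrays, against 8.48, 8.44 and 8.58 on vehicle arrays. The GC-1 arrays lay below all others, at a difference from vehicle of -0.31 ± 0.08 (adjusted p = 0.0795), which passed in 5 of 16 alternatives. The T3 difference was 0.01 (adjusted p = 0.953), and -0.19 without T3 replicates 1 and 2. T3 replicate 3 lay below all vehicle arrays, and the other T3 arrays did not. The other IGF2R probe set, 201393_s_at, read 10.23, 10.24 and 10.19 on GC-1 arrays and 10.23, 10.28 and 10.24 on T3 arrays, against 10.15, 10.17 and 10.19 on vehicle arrays. Its differences were 0.05 with GC-1 and 0.08 with T3 (adjusted p = 0.628 and 0.329), so the lower signal with GC-1 was seen in 1 of 2 probe sets. All its GC-1 and T3 arrays lay above all vehicle arrays, the lowest GC-1 array only just (10.194, against 10.192 on vehicle replicate 3).

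For IGF1R, the signalling receptor, probe set 203628_at read 8.46, 8.57 and 8.55 on GC-1 arrays and 8.85, 8.83 and 8.59 on T3 arrays, against 8.56, 8.65 and 8.62 on vehicle arrays. T3 replicates 1 and 2, the arrays with the wider interquartile range, were the 2 high ones, and T3 replicate 3 lay within the vehicle range. The T3 difference of 0.15 ± 0.07 did not pass (adjusted p = 0.262), but without T3 replicate 3 it was 0.23 and passed (adjusted p = 0.0333), and without T3 replicates 1 and 2 it was -0.02 (adjusted p = 0.9). With GC-1 the difference was -0.09 (adjusted p = 0.627). Probe set 203627_at had differences of -0.01 with GC-1 and 0.04 with T3, and 208441_at, below the same limit, of -0.05 and -0.14.

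**Figure D3:**
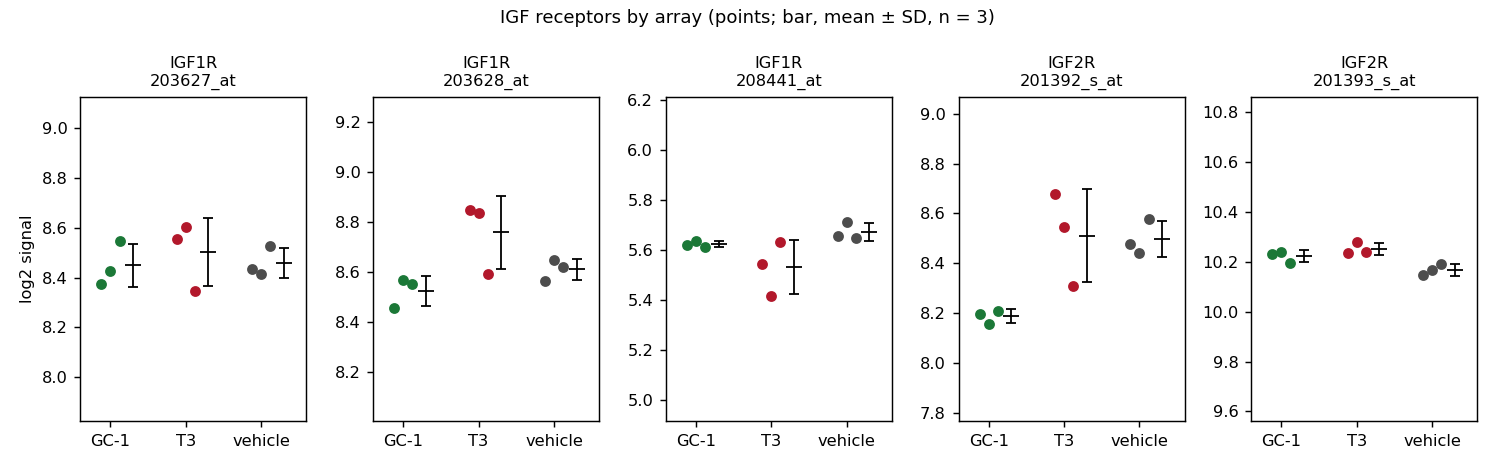
Log2 signal on each array (points, 3 per group) with the mean and SD beside them, for the 3 IGF1R and 2 IGF2R probe sets in GC-1, T3 and vehicle groups; every panel spans the same 1.3 log2 units. In IGF2R 201392_s_at the 3 GC-1 arrays lie lowest, at 8.16 to 8.21, which 201393_s_at does not show, and in IGF1R 203628_at T3 replicates 1 and 2 lie above all other arrays.

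The arrays of a group and of vehicle did not overlap in 9 of 21 member probe sets with GC-1 (42.9%), against 26.5% of all probe sets. Of these 5 were higher and 4 lower (23.8% and 19%), against 10.8% and 15.6% of all probe sets. With T3 they did not overlap in 6 of 21 (28.6%), against 24.9% of all probe sets, and 3 were higher and 3 lower (14.3% each), against 12.5% and 12.4%.

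The second comparison is of GC-1 with T3, the one pair of compounds, at equal dose and time, and asks whether the ligands differ in their effect on these genes. Of the members 0 of 21 passed the threshold, and so did 0 of the 22215 probe sets (0%). At an unadjusted p under 0.05 there were 7 of 21 members (33.3%), against 14.1% of all probe sets, and with the trend and robust options of eBayes 0 of 21 passed. The smallest adjusted p among the members was 0.204. Missing the threshold is no evidence of equal action, so the intervals are given for the probe sets that moved most.

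IGFBP3 210095_s_at had 7.06 ± 0.01 with GC-1 and 7.36 ± 0.11 with T3, a GC-1 minus T3 difference of -0.30 (95% interval -0.46 to -0.13, adjusted p = 0.204). IGF2R 201392_s_at had 8.19 ± 0.03 with GC-1 and 8.51 ± 0.19 with T3, a difference of -0.32 (-0.50 to -0.14, adjusted p = 0.204). IGF1R 203628_at had 8.52 ± 0.06 with GC-1 and 8.76 ± 0.15 with T3, a difference of -0.23 (-0.39 to -0.08, adjusted p = 0.236). The arrays of the ligands did not overlap in any of these 3. They did not overlap in 6 of the 21 members in all (28.6%), against 18% of all probe sets. Only the 3 probe sets named passed when T3 replicate 3 was left out, at -0.36 (adjusted p = 0.0493), -0.42 (adjusted p = 0.0325) and -0.32 (adjusted p = 0.0366) in the order named. The T3 group then holds only the 2 arrays with the wider interquartile range. Without those 2 the differences were -0.16, -0.12 and -0.07 in the same order, with adjusted p of 0.478, 0.478 and 0.702.

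The 2 genes called with GC-1 and not with T3 were not shown to differ between the ligands. IGFBP2 had 7.45 ± 0.02 with GC-1 and 7.67 ± 0.05 with T3, a difference of -0.22 (-0.37 to -0.07, adjusted p = 0.238). IGFBP4 had 8.30 ± 0.02 with GC-1 and 8.11 ± 0.09 with T3, a difference of 0.19 (0.07 to 0.32, adjusted p = 0.227). For IGFBP1 the difference was 0.02, with an interval from -0.12 to 0.16, and for IGFBP6 it was 0.01, from -0.16 to 0.18. All 21 intervals lay within 1.5-fold in either direction.

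Each member called against vehicle was set beside the genes whose 9 values, centred on the vehicle mean, lay closest to it among 11962 others (root mean square distance in log2 units, as a description). Closest to IGFBP3 were GPX3 (0.068), DUSP1 (0.0779) and PHF21A (0.0902), whose differences with T3 were 0.60, 0.54 and 0.54. IGFBP4 was closest to SECTM1 (0.0415), HIF1A (0.0585) and CXCL10 (0.059), with GC-1 differences of 0.28, 0.30 and 0.25. IGFBP2 was closest to PPP4R3B (0.0531), EAF2 (0.0562) and UNG (0.0669), with GC-1 differences of -0.36, -0.29 and -0.28.

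A list of 55 other genes of the pathway was described with 1 probe set a gene, the brightest, and 48 were measured. With GC-1, 3 of 48 rose and 0 fell (6.25% and 0%), against 2.1% and 1.16% of all genes. With T3, 7 of 48 rose and 0 fell (14.6% and 0%), against 4.51% and 1.71% of all 11963 genes. The list medians were 0.00933 with GC-1 and 0.02 with T3, beside -0.005 and -0.02 over all genes. The list's 48 differences with T3 lay between -0.27 (MMP7) and 0.41 (FOXO1). With the interquartile range as a covariate 5 rose and 1 fell with T3, and the same counts were found without T3 replicates 1 and 2. The gene that fell was GSK3B, a kinase that AKT inhibits (-0.50, adjusted p = 0.0154 with the covariate, and -0.46 without the 2 arrays), against -0.12 as reported. It read 8.021, 8.051 and 7.515 on T3 arrays, against 8.017, 7.959 and 7.964 on vehicle arrays. T3 replicates 1 and 2 lay above all vehicle arrays, and only T3 replicate 3 lay below them.

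In insulin and IGF receptor signalling 3 of 23 measured genes rose with GC-1 (13%) and 5 with T3 (21.7%), against 2.1% and 4.51% of all genes; the groups of the list were not tested against each other. FOXO1, the transcription factor that insulin signalling keeps out of the nucleus, read 8.18, 8.15 and 8.21 on GC-1 arrays and 8.29, 8.33 and 8.24 on T3 arrays, against 7.97, 7.81 and 7.85 on vehicle arrays. The groups did not overlap, at differences of 0.31 with GC-1 (adjusted p = 0.013) and 0.41 with T3 (adjusted p = 0.00119). Its other probe set, 202723_s_at, had 0.20 with GC-1, which did not pass (adjusted p = 0.167), and rose by 0.28 with T3 (adjusted p = 0.0387). IRS1, the docking protein of both the insulin and the IGF1 receptor, had differences of 0.29 with GC-1 (adjusted p = 0.0221) and 0.35 with T3 (adjusted p = 0.00435). SHC1, the adaptor that links these receptors to the Ras pathway, had 0.24 with GC-1 (adjusted p = 0.0169) and 0.29 with T3 (adjusted p = 0.00378).

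PDPK1, the kinase that activates AKT, rose with T3 (0.28, adjusted p = 0.00506) and had 0.10 with GC-1 (adjusted p = 0.321). Without T3 replicates 1 and 2 the T3 differences of IRS1 (0.27, adjusted p = 0.0525), INSR (0.18, adjusted p = 0.124) and CTSD (0.24, adjusted p = 0.0953) did not pass, while those of FOXO1, SHC1, PDPK1 and PLG were 0.28 to 0.41 and did. INSR, the insulin receptor, rose with T3 (0.22, adjusted p = 0.0355) and had 0.19 with GC-1 (adjusted p = 0.0895). Its other probe set, 207851_s_at, did not pass with either ligand (0.14 with GC-1, adjusted p = 0.465, and 0.21 with T3, adjusted p = 0.171). IRS2, a second docking protein, had -0.05 with GC-1 and -0.09 with T3 (adjusted p = 0.806 and 0.489). Its dimmer probe set 209184_s_at fell with T3 (-0.23, adjusted p = 0.0173) and had 0.10 with GC-1 (adjusted p = 0.339). The GC-1 minus T3 difference of that probe set was 0.33 (adjusted p = 0.143).

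Of 10 genes for proteases that cut binding proteins and their inhibitors, 0 passed with GC-1 and 2 rose with T3 (20%, against 4.51% of all genes). These were PLG, the precursor of plasmin (0.27, adjusted p = 0.0428), and CTSD, a lysosomal protease (0.21, adjusted p = 0.0495). PAPPA, the protease that cuts IGFBP4, had differences of 0.18 with GC-1 (adjusted p = 0.225) and 0.06 with T3 (adjusted p = 0.649). In the growth hormone axis 0 of 7 measured genes passed with either ligand as reported. The receptor gene GHR had 0.13 with GC-1 and 0.05 with T3 (adjusted p = 0.453 and 0.733). STAT5B, of the same axis, had 0.16 with T3 (adjusted p = 0.162), and 0.26 without T3 replicates 1 and 2. Of 6 related proteins with the binding protein fold, and of 2 IGF2 messenger-binding proteins, none passed in the probe set used. IGFBP7, a secreted relative with weak IGF affinity, had 0.11 with GC-1 (adjusted p = 0.369) and 0.10 with T3 (adjusted p = 0.339) in its brightest probe set. Its probe set 201163_s_at, at the dim end, read 4.65, 4.82 and 4.50 on GC-1 arrays and 4.55, 5.14 and 4.38 on T3 arrays, against 4.03, 4.00 and 3.77 on vehicle arrays. That one rose with both ligands (0.73, adjusted p = 0.041, with GC-1 and 0.76, adjusted p = 0.022, with T3), which its brightest probe set did not show.

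**Figure D4:**
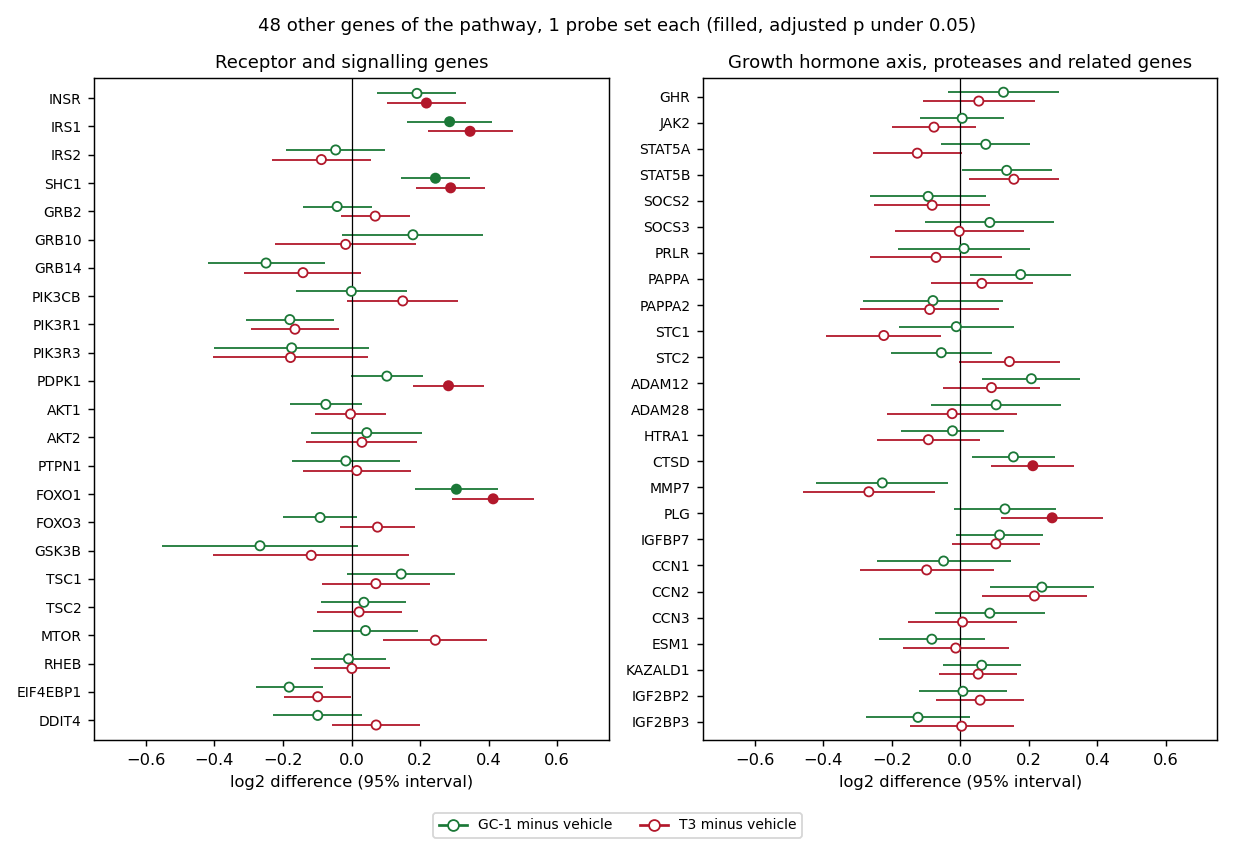
Log2 differences from vehicle with 95% intervals for 48 other pathway genes, GC-1 and T3 side by side; filled points have an adjusted p under 0.05. Filled points for both ligands stand at FOXO1, IRS1 and SHC1, and for T3 alone at PDPK1, INSR, PLG and CTSD, all to the right of 0.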

How the data were processed

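The deposited values are log2 signals that the authors made with RMA (version not given in the sources used here), per the submitters' processing notes. The log base was inferred from the values (3.15 to 14.5). They were used as deposited, without scanner files, so slide, scan order and detection were not examined. After 62 array controls were left out, 22215 probe sets remained, of which 19064 had 1 gene symbol, 1043 several and 2108 none; only the first kind was named.

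All 9 arrays were fitted in one linear model with a mean for each of the 3 groups, in limma 3.58.1 in R 4.3.3 (lmFit, eBayes, two-sided), and tested on simulated data. The Benjamini-Hochberg adjustment covered every probe set of a contrast, with 0.05 as the threshold, and intervals are at 95%. The number of arrays limits the precision.

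Every member probe set is named. Of the other pathway genes, those past the threshold are named (at most 12), and IGF2 (not analysed here), INSR, GHR, FOXO1, IRS1, IRS2 and IGFBP7 whatever they showed. PAPPA, MMP7, GSK3B and STAT5B were added after their values were seen. Members, lists and alternatives were chosen with earlier results of these data known. One alternative, without T3 replicates 1 and 2, was chosen after seeing the data.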

Additional observations from a re-analysis of the deposited data

How the results depend on the processing

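The limits are few arrays, log2 differences mostly under 0.6, and probe sets of 1 gene that disagree. No direction of a called member turned in any of the 17 alternatives, but most could not turn one. The arrays of each called comparison do not overlap, so leaving out or weighting arrays keeps the direction. Settings that change only the spread or the probe sets tested, and the replicate block, leave the difference as it is. Only quantile normalization and the covariate could have turned it. IGFBP3's rise with T3 kept its call in the 16 alternatives that keep at least 2 arrays a group. The other, without T3 replicates 1 and 2, takes its spread from the GC-1 and vehicle arrays only, so for GC-1 it repeats the fit of only the groups compared. Of 1050 single probe set values recomputed, 1012 kept their side of the threshold, 27 moved past it and 11 no longer passed, all 11 being IGFBP2 or IGFBP4 with GC-1. Most of the 1050 belong to comparisons that did not pass as reported, so the 1012 say little of how stable the calls are. With GC-1 the IGFBP2 call held in 10 of the 16 alternatives and the IGFBP4 call in 11. The cause of these moves was not tested. 

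The count of members called with T3 (1 as reported) was 2 without dim probe sets, 2 with trend and robust options, 3 with the interquartile range as a covariate and 2 without T3 replicates 1 and 2. With GC-1 (2 as reported) it was 4 without dim probe sets, 5 with trend and robust options, 5 with array weights, 4 with only the groups compared and 4 without T3 replicates 1 and 2. Without dim probe sets only 14 members and 16661 probe sets were tested, and 1541 probe sets passed with T3 and 855 with GC-1. Over all probe sets the T3 count (1222) was 1957 with trend and robust options, 753 with only the groups compared, 773 with the replicate block and 2084 with the covariate. The GC-1 count (622) was 1347 with trend and robust options, 1435 with array weights, 1061 with only the groups compared, 347 with the replicate block and 1061 without T3 replicates 1 and 2. GC-1 minus T3 (0) had 22 with trend and robust options. The pathway list with T3 (7 genes) had 4 with only the groups compared and 4 with the replicate block. With GC-1 (3 genes) it had 6 with trend and robust options, 5 with array weights, 5 with only the groups compared, 1 with the replicate block and 5 without T3 replicates 1 and 2.

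Leaving out each array in turn gave 1 to 2 members with T3, 0 to 5 with GC-1 and 0 to 3 for GC-1 minus T3. It gave 661 to 1356, 274 to 1272 and 0 to 338 probe sets in all, and 4 to 7 and 0 to 4 pathway genes. The highest GC-1 and GC-1 minus T3 counts came without T3 replicate 3. Replicate numbers gave no sign of pairing, though the labels do not say whether the arrays were paired. Same-numbered arrays of 2 groups had correlations of -0.262 to 0.0755 between their deviations, 0 of 9 over 0.1. The replicate block changed no member's call.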
